A study of Mus musculus with 31 samples.

Results

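The clustered protocadherins of the mouse brain were followed across total RNA sequencing libraries from control animals and from animals in the deltamethrin group. Members were the genes whose symbol begins with Pcdha, Pcdhb or Pcdhg and that had 10 or more counts in at least 13 libraries. Of 58 entries with such a symbol, 53 met that rule, out of 48795 genes in the table. They comprised 12 of 14 entries of the alpha cluster, 21 of 22 of the beta cluster and 20 of 22 of the gamma cluster.

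Deltamethrin is a pyrethroid that keeps sodium channels of nerve cells open, and the study's question was what exposure to it in development does to transcription in the mouse brain. Each of the 31 libraries was made from an aliquot of homogenised brain and sequenced on an Illumina NovaSeq; 13 carried the agent label control and 18 the label deltamethrin. The labels give no strain, dose, age, litter, sex, batch or collection time. They also do not say whether each library came from a separate animal, so the p-values here measure the spread between these samples only, which may in part be technical.

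Clustered protocadherins are cadherin-superfamily adhesion proteins on the neuronal surface. They lie in tandem arrays, and each neuron chooses a small set of them by switching on individual promoters, partly by chance. Their extracellular domains bind the same isoform on a facing membrane, which lets the branches of a neuron tell self from non-self, and the gamma genes are known for dendrite self-avoidance and for the survival of interneurons. In the alpha and gamma clusters each variable first exon is spliced to constant exons shared by the whole cluster, while a beta gene is a single coding exon. The C-type genes (Pcdhac1, Pcdhac2, Pcdhgc3, Pcdhgc4 and Pcdhgc5) sit at the downstream end of their clusters and are expressed more broadly than the alternate isoforms, which are chosen stochastically.

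All 58 entries lay on the plus strand of chromosome 18 of GRCm38, per the GENCODE M21 annotation. They spanned chr18:36930184-37841873, a locus of 911690 bp. The alpha cluster occupied chr18:36930184-37187661, the beta cluster chr18:37264938-37524479 and the gamma cluster chr18:37661793-37841873. Every alpha and gamma gene model ran to the end of its cluster, because the shared constant exons are there. Exonic bases that overlapped no exon of any other gene on either strand, called own exonic bases here, made up 35.1% to 51.4% of the exons of the alpha members and 26.4% to 68.5% of those of the gamma members. Of the 21 beta members, 18 consisted wholly of own exonic bases. The exceptions were Pcdhb12, with 36.5% own bases because the antisense gene Gm37446 overlaps it, and the neighbours Pcdhb21 and Pcdhb22, which overlap by 455 bp. How the authors' counting assigned reads from shared or antisense exons is not given in the sources used here, so values of single alpha and gamma genes carry that uncertainty.

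The 5 entries outside the rule all had low counts. Pcdha4, with 404 own exonic bases (7.0% of its exons), had a median of 5 counts per library. A second entry with the symbol Pcdha11 (ENSMUSG00000102206), with 1268 own exonic bases (16.8%), had a median of 7. Pcdhb1, a beta gene that shares exons with no other gene, had a median of 5 counts and reached 10 in 3 libraries. Pcdhga10, which has 0 own exonic bases, had a median of 2 counts. Pcdhgb8, annotated as a polymorphic pseudogene, had a median of 3 counts and reached 10 in 1 library. The member Pcdha1, with 2489 own exonic bases, reached 10 counts in 30 libraries. The threshold is on counts and takes no account of length, so an entry outside the rule need not have a low level per kilobase.

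Total counts ranged from 17570311 to 38680621 per library, of which the clustered protocadherins took 2501 to 21050. The ribosomal RNAs of mitochondria, mt-Rnr1 and mt-Rnr2, made up 7.32% to 40.2% of the counts. Control replicate 2 stood apart, with the highest mitochondrial rRNA share and the lowest total. It also had the lowest value of 15 of the 53 members. The marker genes of neurons, astrocytes and oligodendrocytes were all detected, which fits the tissue label brain. No gene passed an adjusted p of 0.05 between the groups in edgeR's quasi-likelihood test with Benjamini-Hochberg adjustment over 19529 genes, the lowest adjusted p being 0.441, and 853 genes had an unadjusted p under 0.05.

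Single genes took large shares of the RNA of the alpha and gamma clusters. Levels are compared between genes as mean CPM (counts relative to the TMM-scaled library size) per kilobase of own exon over the 31 libraries. The alpha C-type gene Pcdhac2, which mediates the tiling of serotonergic axons, stood at 11.5 CPM per kilobase and took 47.6% of the alpha cluster's CPM. Next in that cluster came Pcdha12 at 2.29, Pcdha9 at 2.19 and the C-type gene Pcdhac1 at 2.06 CPM per kilobase. Pcdha1, the first gene of the array, was lowest at 0.581.

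The gamma cluster was led by 2 of its C-type genes, and its 3 C-type genes together held 38.3% of its CPM. Pcdhgc5, whose protein binds GABA-A receptors, stood at 9.44 CPM per kilobase and held 24.6% of the gamma cluster's CPM. Pcdhgc3, which promotes dendrite branching of cortical neurons through Axin1, stood at 8.40 CPM per kilobase of own exon. Its own bases are 33.1% of its exons, and per kilobase of all exons it stood at 2.78, beside 5.70 for Pcdhgc5 and 2.24 for Pcdhga6. Pcdhgc4, the isoform on which interneuron survival depends, was lower at 2.60, near the cluster's median of 2.50. Pcdhga11 ranked next below Pcdhgc3 at 4.57, but its own exonic length is 1256 bp and it ranked 13 in the cluster when all its exons were used as the length. Pcdhga1, the first gene of the gamma array, was lowest at 0.793.

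Beta genes had a median of 0.894 CPM per kilobase of own exon, against 1.73 for alpha and 2.50 for gamma members. The order of alpha and beta turned with the length used, since per kilobase of all exons the medians were 0.693 for alpha, 0.888 for beta and 1.23 for gamma. Pcdhb9 led at 2.77, followed by Pcdhb20 at 1.86 and Pcdhb17 at 1.82, and Pcdhb4 was lowest at 0.438. Per kilobase of own exon the highest beta member exceeded the lowest 6.33 times, the highest alpha member 19.8 times and the highest gamma member 11.9 times. Without the C-type genes the alpha members spanned 3.94 times and the gamma members 5.76 times, less than the beta members.

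Levels per kilobase of own exon were related to position in the array, though not evenly along it. Spearman's rho between position in the array and level was 0.755 over the 12 alpha members, 0.60 over the 21 beta members and 0.508 over the 20 gamma members. Without the C-type genes it was 0.624 over 10 alpha genes and 0.311 over 17 gamma genes. Among beta genes it was 0.622 over the 14 members up to Pcdhb15 and -0.286 over the 7 from Pcdhb16 on. With all exons as the length the values were 0.72 for alpha, 0.516 for beta and 0.495 for gamma, and 0.223 for gamma without the C-type genes. These are descriptions across genes that share libraries and, in alpha and gamma, share exons. The plot of levels by chromosomal order shows Pcdhac2 and the pair Pcdhgc3 and Pcdhgc5 above the other members in both groups, on the scale of own exons.

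**Figure D1:**
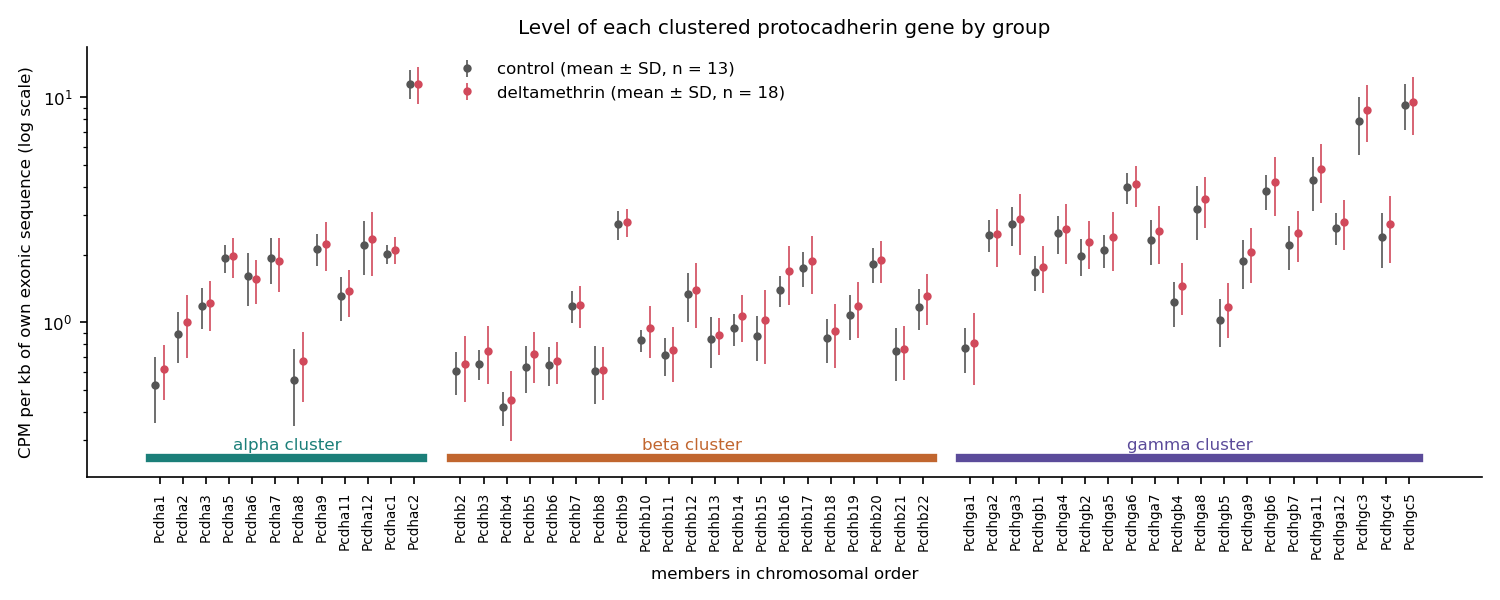
Level of each of the 53 members, as mean CPM per kilobase of own exon with the SD over libraries (log axis), for the 13 control and 18 deltamethrin libraries, with members in chromosomal order. Pcdhac2 at 11.5 and Pcdhgc5 at 9.44 CPM per kilobase over all libraries are highest, and the 2 groups lie close together at every member.

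Between the groups, the levels of the clustered protocadherins differed little, and no member passed the adjusted threshold, which 0% of all genes passed. The log2 fold change of deltamethrin over control ranged from -0.07 to 0.30 over the members, with a median of 0.10, beside a median of 0.0014 over all genes tested. It was above 0 in 50 of the 53 members, or 94.3%, whereas 50.5% of all genes tested were above 0. It was above 0.1 in 26 members, or 49.1%, beside 20.2% of all genes. The members' values move together across libraries, as described below, so these counts are not independent of one another. The count above 0 was not among the planned results.

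The differences of single members were small against the spread between libraries. The standard error was larger than the size of the log2 fold change in 32 of the 53 members, and it reached 0.174. The ranges of the control and deltamethrin libraries overlapped in all 53. The share of all genes with such an overlap is not given here, so this count does not set the members apart. In 30 members more deltamethrin libraries lay above than below the control median, and across the members the number above it ran from 6 to 14 of 18. Deltamethrin replicate 1 held the highest value of 29 members, deltamethrin replicate 2 of 11 and deltamethrin replicate 7 of 7. The lowest value fell in control replicate 2 for 15 members, in deltamethrin replicate 8 for 14 and in control replicate 10 for 9.

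One member had an unadjusted p under 0.05, or 1 of 53, where 4.37% of all genes did (2.0% of all genes with a higher and 2.37% with a lower value in deltamethrin). It was the beta gene Pcdhb16 (ENSMUSG00000047910, chr18:37477814-37483038). Its level ran from 5.18 through a median of 7.30 to 9.50 CPM in the controls, and from 4.95 through 8.38 to 12.7 CPM in the deltamethrin libraries. Thus 13 of 18 deltamethrin libraries lay above the control median and 6 above every control, while the lowest library of all was deltamethrin replicate 9. The log2 fold change was 0.29 ± 0.125 (SE), with an unadjusted p of 0.0278 and an adjusted p of 0.813 in edgeR's quasi-likelihood test. Without control replicate 10 or without deltamethrin replicate 1, 2 or 3, no member had an unadjusted p under 0.05, and the log2 fold change of Pcdhb16 was then 0.25 to 0.26. By limma voom it had an unadjusted p of 0.0569. Leaving out control replicate 4 or 7, or deltamethrin replicate 5, 8, 9, 10, 13 or 14, gave 2 to 4 such members. The number of all genes with an unadjusted p under 0.05 in edgeR moved too. It was 803 to 1389 in these last fits and 526 to 610 in the fits that gave no such member, beside 853 over all libraries.

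**Figure D2:**
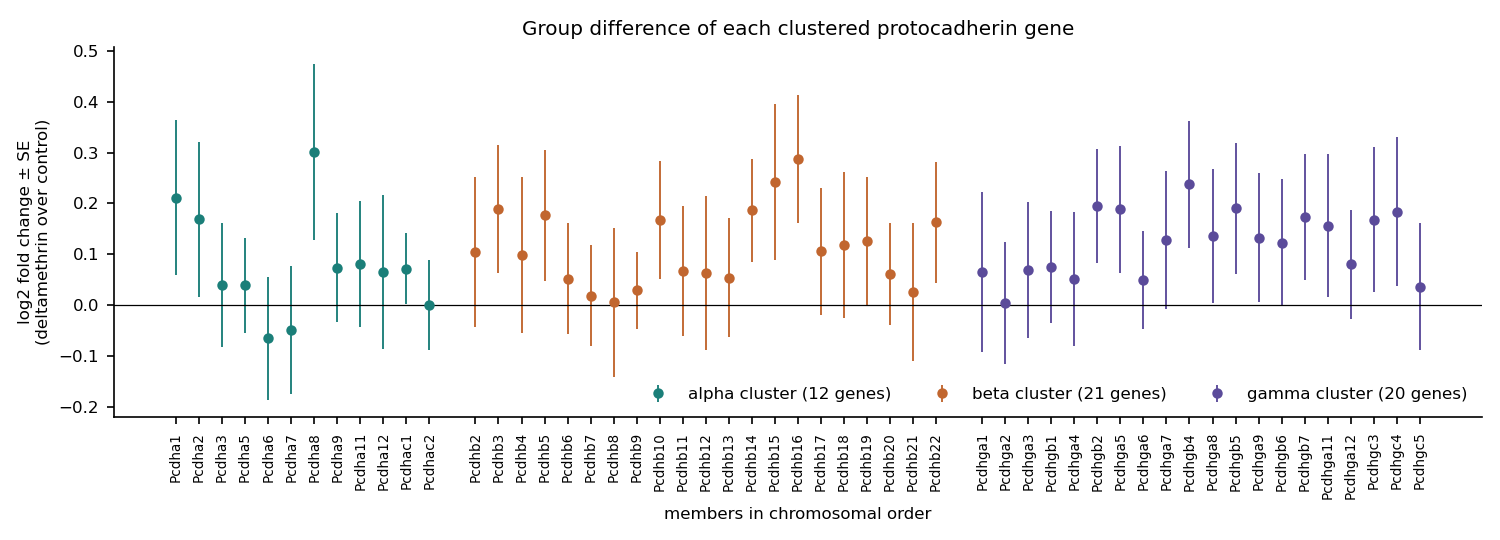
Log2 fold change of deltamethrin over control for each member in chromosomal order, with its standard error, coloured by cluster. Of the 53 points 50 lie above 0, and in 32 members the error bar is longer than the distance to 0.

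In the alpha cluster 9 of 12 members were higher in deltamethrin and 3 lower, none with an unadjusted p under 0.05, and the median log2 fold change was 0.07. Pcdhac2 (ENSMUSG00000102697, chr18:37143503-37187657) ran from 21.9 through a median of 35.5 to 42.3 CPM in the controls and from 25.2 through 34.3 to 48.2 CPM in the deltamethrin libraries. The groups covered much the same range, with 6 of 18 deltamethrin libraries above the control median. The log2 fold change was -0.00025 ± 0.089 (SE), and its sign turned under other scaling, as in 0.034 with no scaling factors. Pcdhac1 (ENSMUSG00000103255), the other C-type gene of the cluster, was the steadiest member. It ran from 4.21 through 5.17 to 6.04 CPM in the controls and from 4.20 through 5.50 to 6.75 CPM in deltamethrin. The log2 difference was 0.07 ± 0.07 (SE). Its biological coefficient of variation between libraries was 11.7%, the lowest of the members, where the median of the 53 was 23.1%.

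Pcdha8 (ENSMUSG00000103800), an alternate isoform, had the largest fold change of any member on counts among the lowest. Its controls ran from 0.673 through a median of 1.32 to 2.72 CPM and its deltamethrin libraries from 0.878 through 1.54 to 2.96 CPM. Of the 18 deltamethrin libraries 14 lay above the control median, but only 2 above the highest control. The log2 difference was 0.30 ± 0.174 (SE), with an unadjusted p of 0.092 by edgeR's quasi-likelihood test. Without control replicate 7 it was 0.42, with an unadjusted p of 0.0155. Pcdha1 had a log2 fold change of 0.21 ± 0.152 (SE). On the other side, Pcdha6 had -0.07 ± 0.122 and Pcdha7 -0.05 ± 0.126, and in both genes the highest of the 31 libraries was control replicate 4. The more abundant alternate genes Pcdha9 and Pcdha12 each had a log2 fold change of 0.07, with a standard error of 0.107 and 0.152.

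All 21 beta members had a log2 fold change above 0, with a median of 0.10 and a range from 0.0054 to 0.29. Pcdhb16, described above, led. Pcdhb15 (ENSMUSG00000047033), its upstream neighbour, ran from 1.52 through a median of 2.18 to 3.23 CPM in the controls and from 1.38 through 2.47 to 5.48 CPM in deltamethrin. As for Pcdhb16, a subset of deltamethrin libraries lay above every control, here 6 of 18, and the lowest library was again from that group. This gave a log2 fold change of 0.24 ± 0.153 (SE), with an unadjusted p of 0.123 in edgeR. Pcdhb9 (ENSMUSG00000051242), the most abundant beta gene per length, ran from 5.76 through 8.52 to 10.1 CPM in the controls and from 6.70 through 8.22 to 11.9 CPM in deltamethrin, so its deltamethrin median lay below that of the controls. Its log2 fold change was 0.03 ± 0.0761 (SE). Among the other abundant genes Pcdhb17 had 0.11 ± 0.125 and Pcdhb20 0.06 ± 0.10. The smallest differences were those of Pcdhb8, at 0.0054 ± 0.146, and Pcdhb7, at 0.02 ± 0.10. Pcdhb4, the lowest beta gene per length, had 0.10 ± 0.153.

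The gamma cluster had the largest median log2 fold change, 0.13, with all 20 members above 0 and a range from 0.0047 to 0.24, and none with an unadjusted p under 0.05. Its 6 gamma B members had a median of 0.18 and its 11 gamma A members one of 0.08. No test compared these subfamilies or clusters. Pcdhgb4 (ENSMUSG00000103585) ran from 3.06 through a median of 4.47 to 6.56 CPM in the controls and from 2.90 through 5.26 to 7.81 CPM in deltamethrin. The deltamethrin libraries extended past the controls at both ends, with 12 of 18 above the control median. The log2 difference was 0.24 ± 0.125 (SE), with an unadjusted p of 0.0655 in edgeR. Leaving out 1 library moved that p to as low as 0.0234, without control replicate 7. Pcdhgb2 had a log2 fold change of 0.20 ± 0.112 (SE), with an unadjusted p of 0.0911. At the other end, Pcdhga2 had 0.0047 ± 0.12. Pcdhga1, the lowest gamma gene per length, had 0.065 ± 0.157.

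The 3 gamma C-type genes varied widely between libraries. Pcdhgc5 (ENSMUSG00000102543, chr18:37819513-37841873) ran from 24.8 through a median of 42.4 to 63.3 CPM in the controls and from 31.2 through 38.9 to 74.9 CPM in deltamethrin. Only 6 of 18 deltamethrin libraries lay above the control median, and the log2 fold change was 0.04 ± 0.125 (SE). For Pcdhgc3 (ENSMUSG00000102918) the controls ran from 6.41 through 14.8 to 19.7 CPM and the deltamethrin libraries from 9.63 through 14.6 to 23.5 CPM. The medians were close and the ends of the range differed, with control replicate 2 lowest and deltamethrin replicate 1 highest. The log2 difference was 0.17 ± 0.143 (SE), with an unadjusted p of 0.248 in edgeR. Pcdhgc4 (ENSMUSG00000023036) ran from 5.53 through 8.49 to 11.98 CPM in the controls and from 5.12 through 8.30 to 16.8 CPM in deltamethrin. Here too the deltamethrin median lay below that of the controls while the mean lay above it, and the log2 fold change was 0.18 ± 0.147 (SE). Pcdhga11 had 0.16 ± 0.141.

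The median of each cluster depended on single libraries and on the model. The alpha median log2 fold change of 0.07 was 0.03 without control replicate 2, 0.04 without control replicate 10, 0.03 without deltamethrin replicate 1 or without deltamethrin replicate 7, and 0.11 without control replicate 4. The beta median of 0.10 was 0.06 without deltamethrin replicate 1 and 0.07 without control replicate 10. The gamma median of 0.13 was 0.09 without control replicate 2 or 10 or without deltamethrin replicate 1 or 2, and 0.17 without control replicate 4. With the log2 mitochondrial rRNA share as a covariate the medians were 0.04 for alpha, 0.06 for beta and 0.09 for gamma, and 47 of 53 members had a log2 fold change above 0. By limma voom they were 0.034 for alpha, 0.065 for beta and 0.10 for gamma, and with no scaling factors that of alpha was 0.11.

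Summed over its members, each cluster had a similar level in both groups. The alpha sum was 72.3 ± 10.1 CPM (SD, n = 13) in the controls and 74.1 ± 13.8 CPM (SD, n = 18) in deltamethrin. The beta sum was 89.8 ± 12.3 CPM in the controls and 97.8 ± 21.9 CPM in deltamethrin. The gamma sum was 169 ± 30.8 CPM in the controls, with a median of 173, and 182 ± 46.6 CPM in deltamethrin, with a median of 168. The group means of all 3 clusters thus differed by less than 1 SD of the controls, and for gamma the order of the medians was opposite to that of the means. Deltamethrin replicate 1 had the highest sum in all 3 clusters, 101 CPM for alpha, 146 for beta and 282 for gamma. Control replicate 2 was lowest for alpha, at 49.7 CPM, and for gamma, at 109 CPM, and control replicate 10 for beta, at 69.1 CPM. The C-type share of the cluster's CPM was 55.4% ± 2.17 in the control and 54.5% ± 2.86 in the deltamethrin libraries for alpha, and 38.5% ± 2.78 and 38.1% ± 2.72 for gamma. The balance between C-type and alternate isoforms therefore also differed by less than the spread between libraries.

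**Figure D3:**
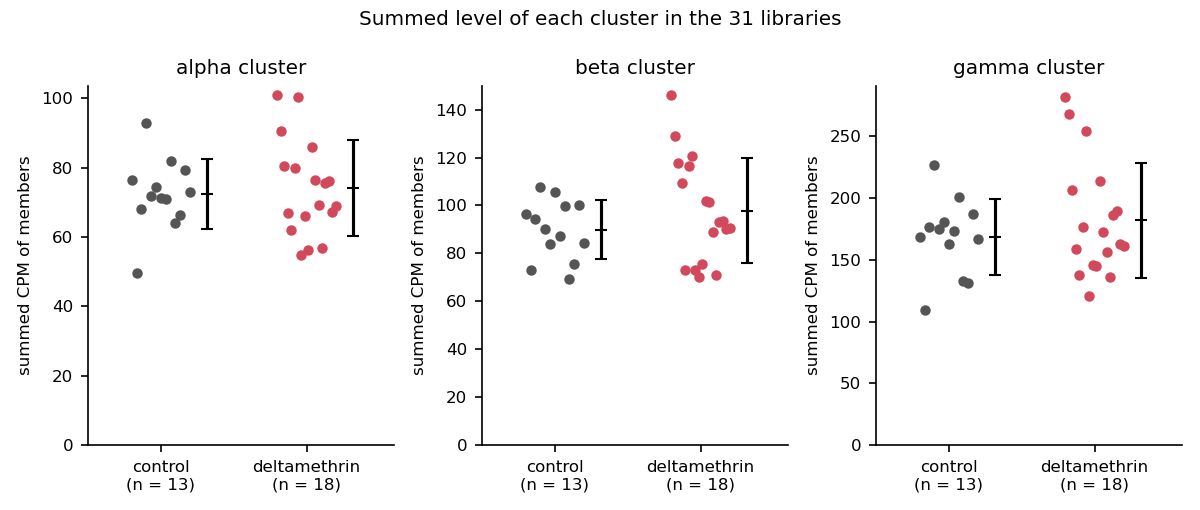
Summed CPM of the members of each cluster in every library, 1 point per library, by group (n = 13 control, n = 18 deltamethrin), with the group mean and SD. The groups overlap in each panel, and the highest point of all 3 panels, 282 CPM in the gamma cluster, is deltamethrin replicate 1.

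The members' levels were lower in libraries with a higher mitochondrial rRNA share. Pearson's r between a member's log2 CPM and the log2 share of mt-Rnr1 and mt-Rnr2 over the 31 libraries was below 0 for all 53 members, with a median of -0.557, while 49.5% of all genes tested had a negative r. It was -0.5 or lower for 33 members, or 62.3%, and for 22.9% of all genes. It was lowest for the C-type genes Pcdhgc4 at -0.894, Pcdhgc3 at -0.887 and Pcdhac2 at -0.846. The C-type gene Pcdhac1 stood at -0.282, and Pcdha8 came nearest to 0, at -0.09. CPM share a denominator with mitochondrial rRNA counts, although TMM scaling was applied, so the measures are not independent.

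The relation was present within each group. For the mean log2 CPM of the gamma members, r was -0.795 and Spearman's rho -0.794 over 31 libraries, and r was -0.766 within the 13 controls, -0.871 within the 18 deltamethrin libraries and -0.81 without control replicates 2 and 7, the libraries farthest from the median share. For alpha, r was -0.70 and rho -0.63 in all, and r was -0.616 within the controls, -0.799 within deltamethrin and -0.703 without those 2 libraries. The beta cluster had the weakest relation, with r of -0.588 and rho of -0.512 in all, and r of -0.447 within the controls, -0.727 within deltamethrin and -0.636 without those 2 libraries. The mitochondrial rRNA share was 16.2% ± 9.12 (SD) in the controls and 14.4% ± 4.98 in deltamethrin, and its part in the group difference was not tested beyond the fit that holds it as a covariate.

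**Figure D4:**
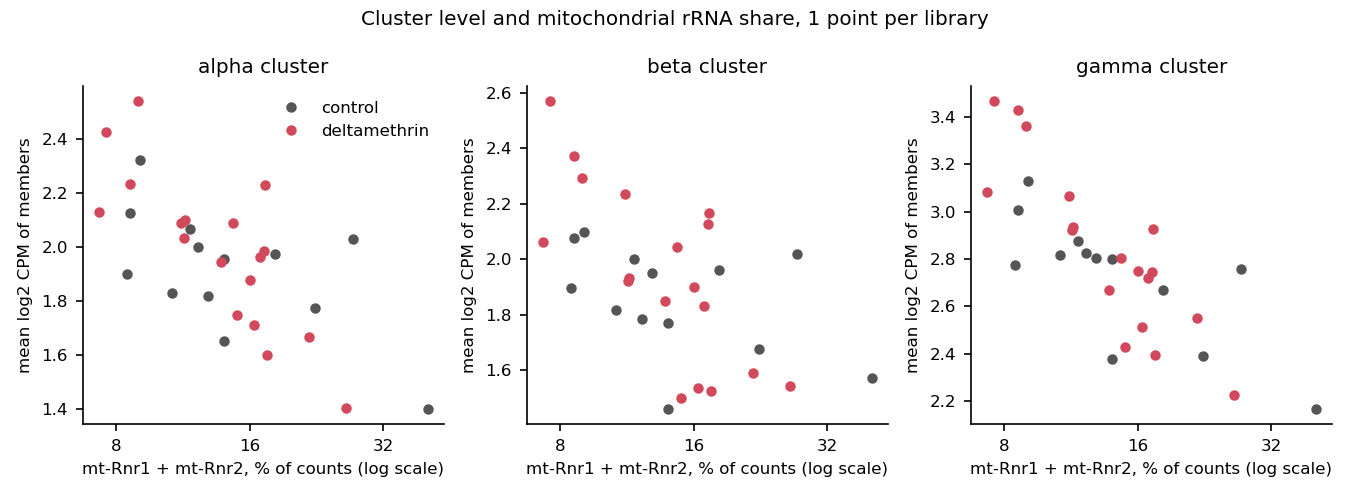
Mean log2 CPM of the members of each cluster against the share of counts in mt-Rnr1 and mt-Rnr2 (log axis), 1 point per library, coloured by group. Levels are lower where the share is higher, in both groups, with r of -0.70 for alpha, -0.588 for beta and -0.795 for gamma over 31 libraries.

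Marker genes of several cell types, taken as the mean log2 CPM of each list, moved with the clusters across the 31 libraries. For endothelium, r with the mean log2 CPM of the members was 0.76 for alpha, 0.736 for beta and 0.845 for gamma. For astrocytes it was 0.628, 0.626 and 0.799, and for neurons 0.688, 0.584 and 0.762, in the same order. Red blood cell genes ran the other way, at -0.656, -0.578 and -0.692. Over all 31 libraries, oligodendrocyte markers had an r from -0.041 to 0.149 with the 3 clusters, and choroid plexus markers from 0.078 to 0.135. These hid differences between the groups. With gamma, r was 0.441 in the controls and -0.0014 in deltamethrin for oligodendrocytes, and -0.261 and 0.361 for choroid plexus. Meningeal markers had 0.421, 0.528 and 0.588 and serotonergic markers 0.363, 0.537 and 0.456 for alpha, beta and gamma. The remaining lists lay between -0.165 and 0.422. These are descriptions only. Within a library all genes share its depth and its mitochondrial rRNA share, and both differed between libraries.

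Between the groups, all 6 endothelial markers had a log2 fold change above 0, 1 of them with an unadjusted p under 0.05 in edgeR. Their median was 0.10, with a summed level of 81.4 to 132 CPM in the controls and 89.3 to 154 CPM in deltamethrin. All 6 astrocyte markers were also higher, with a median of 0.12 and sums of 759 to 1484 CPM and 995 to 1700 CPM. Of 8 neuron markers 6 were higher, with a median of 0.02 and sums of 2523 to 5241 CPM in the controls and 3393 to 5674 CPM in deltamethrin. All 5 blood markers were lower, with a median of -0.29 and sums of 492 to 1670 CPM and 380 to 1242 CPM. None of the astrocyte, neuron or blood markers had an unadjusted p under 0.05 in edgeR. Of the regional markers, all 9 of cerebellum were higher, 1 of them with an unadjusted p under 0.05, with a median of 0.23 and sums of 180 to 550 CPM in the controls and 204 to 710 CPM in deltamethrin, and all 8 of striatum were lower, 0 with an unadjusted p under 0.05 in edgeR, with a median of -0.16 and sums of 698 to 1280 CPM and 542 to 1308 CPM. In the other marker lists, given below, 1 microglia, 2 choroid plexus and 2 meningeal markers had an unadjusted p under 0.05 in edgeR. No oligodendrocyte, cortex and hippocampus or serotonergic marker had one. Over all genes tested, 4.37% had an unadjusted p under 0.05 in edgeR and 50.5% had a log2 fold change above 0. Genes of one list may move together across libraries, so the counts within a list are not independent. No marker passed the adjusted threshold, and the sums of the groups overlapped in every list. No marker in these lists was at 0 in every library. In bulk tissue, fewer cells of a type and less RNA per cell cannot be told apart, and the part of cell composition in the members' values was not tested.

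Members moved together across libraries. Over the 1378 pairs of members the median Pearson r of log2 CPM over 31 libraries was 0.625 and no pair was negative, beside a median of -0.003 over the 190681156 pairs of all genes tested. Gamma pairs were the most alike, with a median of 0.762, followed by 0.573 among beta and 0.53 among alpha members. Pairs across clusters had medians of 0.551 for alpha with beta, 0.635 for alpha with gamma and 0.629 for beta with gamma. Neighbouring genes were little more alike than others, with medians of 0.566 against 0.523 in alpha, 0.628 against 0.569 in beta and 0.795 against 0.754 in gamma. The median over all pairs was 0.514 within the controls, with 68 negative pairs, and 0.706 within deltamethrin, with 1; subtracting the group means left 0.621. Without control replicate 2 it was 0.619, and without that library and deltamethrin replicate 1, which held the highest value of 29 members, it was 0.574, both left out after the data were seen. Whether shared exons were counted for more than one alpha or gamma gene was not tested. Pcdhga10, which has 0 own exonic bases, had 0 to 5 counts per library, beside 267 to 2979 for Pcdhgc5.

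Removing the mitochondrial rRNA share lowered the likeness of the C-type genes more than that of some beta genes. After the linear relation with that share was removed from each gene, the median r over all pairs was 0.465 with 10 negative pairs, and over all genes it was 0. Among the 5 C-type genes it went from 0.788 to 0.363, and for Pcdhgc3 with Pcdhgc4 from 0.896 to 0.495. Such a fall depends on each gene's r with the share that was removed. That r was -0.887 for Pcdhgc3 and -0.894 for Pcdhgc4, but -0.554 for Pcdhb17 and -0.411 for Pcdhb19. The fall is thus not a separate trait of the C-type genes, and the median over gamma pairs also fell, from 0.762 to 0.521. In contrast, the most alike pair of all, Pcdhb17 and Pcdhb19, had 0.910 before and 0.90 after. The next pair, Pcdhb3 and Pcdhga5, lies 393581 bp apart in different clusters and had 0.903 before and 0.846 after. Pcdha8 was the least alike, with 0.049 for its pair with Pcdhb12.

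Some beta genes were closely alike, among them a run of 5 neighbours that was singled out after its values were seen. It goes from Pcdhb16 to Pcdhb20, at chr18:37477814-37507822, a stretch of 30009 bp in which the genes lie 10 to 2485 bp apart. The 10 pairs within it had r of 0.759 to 0.910, with a median of 0.863, and 0.845 after removal of the mitochondrial rRNA share. The 120 pairs among the other 16 beta members had a median of 0.529, and 0.403 after removal. The likeness was not particular to the run. Its 80 pairs with the other beta members had a median of 0.651 and reached 0.883. Pcdhb14 had a median r of 0.826 with the 5 genes, Pcdhb21 of 0.808, Pcdhb11 of 0.795 and Pcdhb22 of 0.793, while Pcdhb13 had 0.479 and Pcdhb6 0.497. Among beta genes with median counts like those in the run (135 to 263 per library), Pcdhb14 and Pcdhb22 were thus close to it, whereas Pcdhb9 had a median r of 0.525 with the run and Pcdhb7, at a median of 125 counts, one of 0.503. Whether reads that run past the end of one gene into the next were counted for both was not tested.

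**Figure D5:**
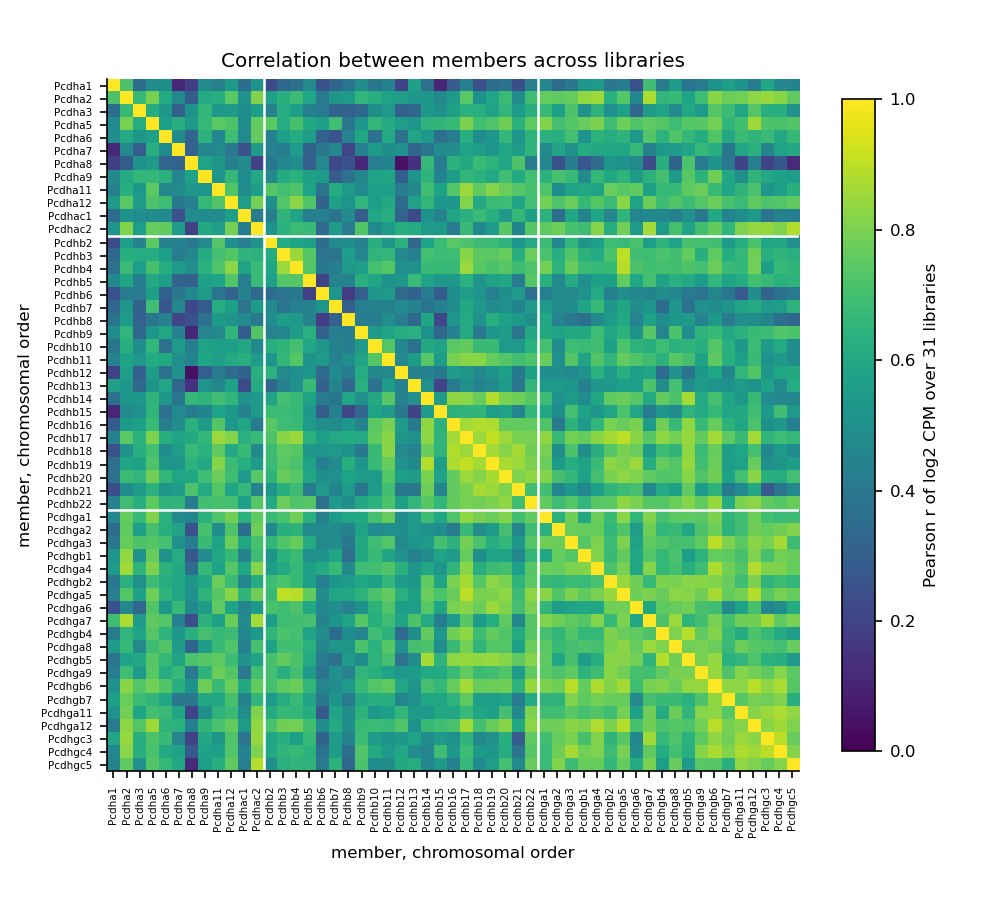
Pearson r of log2 CPM over the 31 libraries for every pair of the 53 members, in chromosomal order, with the clusters marked. All pairs are above 0, the gamma square is the most uniformly high (median 0.762), and the beta square holds a run of high pairs from Pcdhb16 to Pcdhb20 (median 0.863), which Pcdhb14 and Pcdhb21 share.

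Other genes of the pathway differed little between the groups, and none passed the adjusted threshold. All 12 nonclustered protocadherins, related adhesion genes that lie outside the arrays, had a log2 fold change above 0, as did 50.5% of all genes tested. The median of the 12 was 0.12. Pcdh18, a member of that list, had 4.60 ± 0.920 CPM in the controls and 5.34 ± 1.15 CPM in deltamethrin. The log2 difference was 0.21 ± 0.104 (SE), at an unadjusted p of 0.0496 and an adjusted p of 0.813 in edgeR. Of 19 regulators of protocadherin promoter choice (CTCF, cohesin, DNA methyltransferases and chromatin repressors) 14 were higher and 5 lower, with a median of 0.05 and none with an unadjusted p under 0.05. Dnmt3a, the de novo DNA methyltransferase with the highest CPM on that list, had 92.3 ± 8.20 CPM in the controls and 94.0 ± 9.04 CPM in deltamethrin. Among 20 binding partners and effectors 10 were higher and 10 lower, with a median of 0.0030. Their most abundant gene Cyfip2, part of the WAVE actin regulatory complex, had 674 ± 125 CPM in the controls and 679 ± 169 CPM in deltamethrin.

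Genes that flank the arrays on chromosome 18 differed in both directions. Of 12 such neighbours 4 were higher and 8 lower in deltamethrin, where 50.5% of all genes tested were higher. With so few genes the count does not set the neighbours apart from that share. Their median log2 fold change was -0.05. Wdr55, a gene of ribosome biogenesis on the alpha side of the locus, had 11.4 ± 1.83 CPM in the controls and 9.94 ± 1.83 CPM in deltamethrin. The log2 fold change was -0.19 ± 0.0885 (SE), with an unadjusted p of 0.036 and an adjusted p of 0.813 in edgeR's quasi-likelihood test, and 14 of 18 deltamethrin libraries lay below the control median. Its r with the log2 mitochondrial rRNA share was 0.503, opposite in sign to that of every clustered protocadherin. Of all genes tested, 49.5% had a negative r with that share, so the sign of 1 gene says little.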

How the data were processed

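The deposited values are raw counts, 1 row per Ensembl gene with its symbol, and are whole numbers that the authors did not normalize. The submitters' processing notes name Trimmomatic, HISAT2, SAMtools, MultiQC and the build GRCm38; the counting tool, the annotation and the use of strand are not given in the sources used here. Groups came from the agent label. Gene positions and exons were taken from GENCODE M21, in which 48435 gene IDs (99.3%) were found; 10581 genes had no count.

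Counts were fitted over all 31 libraries with edgeR 4.0.16 in R 4.3.3 (TMM factors, filterByExpr with a minimum count of 10 and a minimum total of 15, robust quasi-likelihood F-test, Benjamini-Hochberg adjustment over 19529 genes, threshold 0.05). All 53 members passed the filter. Standard errors are the size of the log2 fold change over the square root of F. Correlations used log2 CPM with a prior count of 2. The common biological coefficient of variation was 20.2%. In counts simulated from these libraries, tested on 19428 genes, the fit called 94% of genes changed by a fold of 2, 82% at 1.5 and 28% at 0.8. Alternatives were other scaling and filters, DESeq2 1.42.0, limma 3.58.1 voom, covariates and leaving out each library.

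The members and gene lists were chosen with earlier results of these data known. Named members are the 3 highest and the 1 lowest per kilobase, the 2 largest and the 2 most negative log2 fold changes of each cluster, the 5 C-type genes and any member with an unadjusted p under 0.05; from each other list, up to 3 genes with the smallest unadjusted p under 0.05, else the one with the highest CPM. Other genes named were chosen after their values were seen.

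Lists not described elsewhere are given as genes with a log2 fold change above 0 in deltamethrin, with the list's median in brackets. They were 2 of 6 oligodendrocyte markers (-0.01), 4 of 6 microglia markers (0.05) and 1 of 11 choroid plexus markers (-0.10). The others were 1 of 6 cortex and hippocampus markers (-0.06), 3 of 3 tested serotonergic markers (0.14) and 4 of 5 meningeal markers (0.14). Over all genes tested, 50.5% were above 0.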

Additional observations from a re-analysis of the deposited data

How the results depend on the processing

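No gene passed an adjusted p of 0.05 in edgeR's quasi-likelihood test, in any of 10 alternatives (DESeq2 and limma voom included) or when any of the 31 libraries was left out. Genes with an unadjusted p under 0.05 numbered 853 in edgeR, 1948 with no count filter, 847 by limma voom, and 526 to 1389 with 1 library left out. Members with an unadjusted p under 0.05 numbered 1 in the fit reported, 2 with no count filter (Pcdhb16 and Pcdhgb4), 0 by limma voom, and 0 to 4 with 1 library left out; the count was 0 without control replicate 10 or deltamethrin replicate 1, 2 or 3, 2 without deltamethrin replicate 5, 8, 10 or 13, 3 without control replicate 4 or deltamethrin replicate 14, and 4 without control replicate 7 or deltamethrin replicate 9. The cause was not tested. The count of members with a log2 fold change above 0 was a result added after seeing the data. It was 47 to 51 of 53 in the alternatives. With 1 library left out it was 45 (without deltamethrin replicate 1) to 53 (without control replicate 4). The cluster medians were above 0 in every alternative and with every library left out, at 0.03 to 0.11 for alpha, 0.06 to 0.15 for beta and 0.09 to 0.17 for gamma. With no scaling factors they were 0.11, 0.15 and 0.16, and the median over all genes was 0.04.

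Of 240 values of the 24 named members under the 10 alternatives, 227 kept their sign and their side of an unadjusted p of 0.05, as did 681 of 744 with 1 library left out. The signs that turned belonged to values near 0. Pcdhac2 was at 0.0027 with RLE factors, 0.0056 with upper quartile factors, 0.034 with no scaling factors, 0.0045 with no count filter and 0.0028 by DESeq2. With the mitochondrial rRNA covariate Pcdhb8 was at -0.0059, Pcdhga2 at -0.036 and Pcdhgc5 at -0.023. With the number in the sample title as a covariate Pcdhb8 was at -0.015 and Pcdhga2 at -0.022, and by limma voom Pcdhga2 was at -0.043. With 1 library left out the range was -0.045 to 0.034 for Pcdhac2, -0.019 to 0.063 for Pcdhb7, -0.070 to 0.067 for Pcdhb8, -0.0053 to 0.063 for Pcdhb9, -0.040 to 0.040 for Pcdhga2, -0.019 to 0.10 for Pcdhgc5, -0.11 to 0.017 for Pcdha6 and -0.095 to 0.037 for Pcdha7.

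No paired analysis was possible because the numbers given to replicates only name them, in accession order, and link no control to a deltamethrin library. With family counts of 2501 to 21050 per library, single members had medians of 46 to 1242 counts, which limits the precision of the lowest; counting alone gives a median count of 46 a coefficient of variation of 14.7%. In the simulation 28% of genes at a fold of 0.8 were called; folds as small as the members' median log2 fold change of 0.10 were not simulated.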
